A study of Mus musculus with 156 samples.

Results

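Mianserin is a tetracyclic antidepressant, and the arrays described here hold striatal RNA taken 1 and 2 h after a single dose of it. They were chosen by the drug and time in the sample labels, which gave 6 arrays, 3 at 1 h and 3 at 2 h, of a series on 26 chips of 6 arrays each. C57BL/6J mice received mianserin at 20 mg/kg by intraperitoneal injection, dissolved in saline, and were killed after 1 or 2 h. The vehicle mice of the same times received saline (3 arrays at each time) or Tween 80 (3 arrays at each time), so that 12 vehicle arrays were used. Naive mice, which were not injected, had 3 arrays at each of these times. The study's methods describe males of 8 to 10 weeks, the labels 6 to 10 weeks, and the dissected tissue was the rostral caudate putamen with the nucleus accumbens. Each array was hybridised with RNA pooled from 2 mice, and nothing in the labels says that arrays of one group came from different cages or days. The p-values therefore measure the spread between pools, whatever its source.

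Mianserin blocks serotonin receptors, alpha-adrenergic receptors and the histamine H1 receptor. The striatum consists largely of medium spiny neurons, inhibitory projection cells driven by cortical and thalamic glutamate and tuned by dopamine and serotonin. In such neurons a change of input is followed within minutes to hours by changes of immediate early genes such as Arc, which encodes a synaptic protein made on demand. Slower hormonal and metabolic genes, not confined to these neurons, include targets of the glucocorticoid receptor, a steroid-activated transcription factor. The study reported that its gene network rich in glucocorticoid-response elements was enriched for astrocyte genes. Clk1 and Clk4 encode kinases that phosphorylate the SR proteins and so steer alternative splicing, and their own pre-mRNAs are regulated by splicing. Hes5 encodes a repressor that acts downstream of Notch receptors. In whole tissue, fewer cells of a type and less RNA per cell cannot be told apart.

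The signal is a log2 array intensity after quantile normalization, in which 1 unit is a doubling, and differences are mianserin minus vehicle. Of 45279 probes tested with limma, 0 passed an adjusted p of 0.05 at 1 h (0%), although 1349 (2.98%) had an unadjusted p under 0.05, 1.41% higher and 1.57% lower. At 2 h 97 probes passed (0.214%), 44 of them higher (0.0972%) and 53 lower (0.117%) after mianserin, and 2789 (6.16%) had an unadjusted p under 0.05, 2.99% higher and 3.17% lower. With arrays scaled to a common median in place of quantile normalization, 14 probes passed at 1 h (11 higher and 3 lower) and 36 at 2 h (24 higher and 12 lower). The 2 h count was 40 without mianserin array 2, 55 without array 1 and 61 without array 3, and between 78 and 94 without any single vehicle array. Medians of the arrays before normalization were 7.95 to 8.55 for mianserin and 7.67 to 8.70 for vehicle. Arrays of one group correlated at 0.9845 to 0.9934.

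The 2 h calls named 32 genes that were higher and 41 that were lower. On 43 of the 44 higher probes all mianserin arrays lay above all vehicle arrays, as on 2.01% of all probes, and on 50 of the 53 lower probes below them, as on 2.23%. The probes were chosen by the difference between these same arrays, so their separation is not independent evidence. The largest falls were in Clk1, Hes5, Clk4 and Arc, and the largest rises in Txnip, Polr3e, Sgk1, Nfkbia and Ddit4. The 250 bases before the start of 3 of these genes are printed because the genes are among those that moved most and their windows hold matches to the motifs searched. The windows are from RefSeq (GRCm38.p6), are written 5′ to 3′ along the plus strand, and carry motif matches in capitals. The motifs searched on both strands were GTGGGAA (bound by RBPJ, the DNA partner of Notch), CCAAT (NF-Y), GTAAACA (FOXO factors), CACGTG (E-box) and TGACG (the core of the cAMP response element).
Hes5, chr4:154960673-154960922, plus strand: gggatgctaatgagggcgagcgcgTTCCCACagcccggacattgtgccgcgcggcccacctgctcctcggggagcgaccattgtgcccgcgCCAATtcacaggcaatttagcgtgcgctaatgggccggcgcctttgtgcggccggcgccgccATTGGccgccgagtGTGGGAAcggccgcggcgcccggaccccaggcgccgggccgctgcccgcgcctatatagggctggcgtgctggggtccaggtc
Clk4, chr11:51262864-51263113, plus strand: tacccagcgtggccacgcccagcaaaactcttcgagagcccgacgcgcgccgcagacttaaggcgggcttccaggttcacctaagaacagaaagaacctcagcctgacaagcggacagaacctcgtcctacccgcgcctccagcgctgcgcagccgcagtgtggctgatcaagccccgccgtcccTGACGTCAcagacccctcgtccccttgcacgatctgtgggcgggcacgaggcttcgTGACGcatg
Txnip, chr3:96557707-96557956, plus strand: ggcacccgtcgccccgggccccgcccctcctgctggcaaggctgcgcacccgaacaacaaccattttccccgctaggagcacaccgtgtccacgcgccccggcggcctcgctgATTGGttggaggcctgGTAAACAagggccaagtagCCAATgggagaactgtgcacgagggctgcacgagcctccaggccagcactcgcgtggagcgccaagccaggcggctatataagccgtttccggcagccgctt
The Hes5 window holds the RBPJ motif in both orientations, beginning 226 and 83 bases before the start. The Clk4 window holds TGACG 3 times, and 2 of these matches overlap, on opposite strands, 65 and 62 bases before the start. The Txnip window holds a FOXO motif 121 bases before the start between 2 CCAAT boxes. These matches are a description of the letters. The windows of Polr3e and Nfkbia, searched in the same way, held 0 matches. Over all genes with a window, 29 of the 32 higher genes and 35 of the 41 lower ones were matched, against 27025 genes in the table. TGACG occurred in 34.5% of the higher, 25.7% of the lower and 19.8% of all windows, and CACGTG in 17.2%, 5.71% and 6.86%. CCAAT occurred in 44.8%, 31.4% and 37.5%, the RBPJ motif in 6.9%, 5.71% and 6.18%, and the FOXO motif in 3.45%, 2.86% and 3.54%. The count behind the higher E-box share was 5 genes.

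Clk1 showed the largest fall at either time. At 1 h the signal was 10.04, 10.44 and 9.63 on the mianserin arrays, against 11.16, 11.10 and 10.91 on the saline arrays and 10.97, 10.99 and 11.40 on the Tween 80 arrays. At 2 h it was 9.62, 9.19 and 9.40 after mianserin, against 11.47, 10.95 and 10.61 after saline and 11.02, 11.13 and 11.56 after Tween 80. All mianserin arrays lay below all vehicle arrays at both times. The difference was -1.05 ± 0.21 (SE) at 1 h (limma, adjusted p = 0.0865) and -1.72 ± 0.21 at 2 h (adjusted p = 4.52e-09), a 3.29-fold lower signal. With the methods' t-test, whose spread comes from the arrays compared alone, the 2 h value did not pass (adjusted p = 0.125). The 1 h value passed without mianserin array 2 (-1.26, adjusted p = 0.0244) without Tween 80 array 1 (-1.07, adjusted p = 0.0492) and, with all arrays, with the chip as a random block (-0.98, adjusted p = 0.0459). These 2 arrays shared the only chip that held mianserin and vehicle arrays of one time, and on that chip Clk1 differed by -0.53. A second Clk1 probe was dim (mean 7.78, against a median of 8.03 over all probes) and differed by -0.13 at 2 h (adjusted p = 0.963).

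Clk4, the close relative of Clk1, gave 9.77, 9.78 and 9.31 at 1 h after mianserin on the probe that later passed, against 10.42, 10.31 and 9.92 after saline and 10.39, 10.36 and 10.69 after Tween 80. At 2 h the values were 9.53, 9.20 and 9.05 after mianserin, against 10.63, 10.34 and 10.04 after saline and 10.15, 10.58 and 10.58 after Tween 80. The groups did not overlap at either time, and the difference was -0.73 ± 0.21 at 1 h (adjusted p = 0.906) and -1.13 ± 0.21 at 2 h (adjusted p = 5.84e-04). With median scaling the 2 h value did not pass (-1.19, adjusted p = 0.113), nor did it with the methods' t-test (adjusted p = 0.194). The 3 other Clk4 probes did not pass (-0.29, -0.24 and -0.04 at 2 h), and the probe that fell was not the brightest of the 4. Among 28 measured CLK kinases and SR splicing factors Srsf6 was the third with a probe that passed (-0.65, adjusted p = 0.0249), while its brighter probe gave 0.27 (adjusted p = 0.833). The Srsf6 call was lost without any 1 of the 3 mianserin arrays, saline array 1 or Tween 80 array 3 (adjusted p from 0.0567 to 0.355), with median scaling (0.113), and against saline (0.285), Tween 80 (0.0763) or naive arrays (0.532) alone. Tra2a, a splicing activator of the same family, gave -0.58 (adjusted p = 0.0761). Over the brightest probe of each of the 28 genes, 1 fell and 0 rose, with a median of -0.08, against -0.0044 over all probes.

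Hes5 fell on both of its probes. On the brighter one the 2 h signal was 8.77, 8.75 and 8.49 after mianserin, against 10.18, 10.03 and 9.96 after saline and 9.95, 9.71 and 9.82 after Tween 80. At 1 h it was 9.54, 9.96 and 9.49 after mianserin, against 10.51, 10.07 and 10.37 after saline and 10.09, 10.11 and 10.16 after Tween 80. The groups stood apart at both times. The 2 h difference was -1.27 ± 0.17 (adjusted p = 1.03e-07), a 2.42-fold lower signal, and -1.03 ± 0.16 on the second probe (adjusted p = 7.91e-06), against -0.56 and -0.64 at 1 h, which did not pass. With the methods' t-test the second probe did not pass at 2 h (adjusted p = 0.2). Hes5 was the only one of 33 measured Notch pathway genes that passed at 2 h, where 1 fell and 0 rose (median -0.04). The receptor Notch1 gave 0.39 (adjusted p = 0.895), and the related repressors Hes1 and Hey1 gave -0.06 and -0.18 (adjusted p = 0.993 and 0.915).

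Arc gave 10.01, 9.99 and 10.14 at 2 h after mianserin, against 10.68, 11.18 and 11.09 after saline and 11.48, 10.79 and 11.51 after Tween 80. At 1 h the mianserin arrays were spread over 11.07, 11.60 and 10.13, against 11.67, 10.99 and 11.32 after saline and 11.63, 11.87 and 11.90 after Tween 80, and the groups overlapped. The 2 h difference was -1.08 ± 0.24 (adjusted p = 0.00985), and its call was lost without any 1 mianserin array (adjusted p from 0.0534 to 0.132), against saline arrays alone (-0.94, adjusted p = 0.292), with median scaling (-1.11, adjusted p = 0.174) and with the chip as a fixed block (-0.90, adjusted p = 0.11). The methods' t-test lost the Arc call as well (adjusted p = 0.26). At 2 h 0 mianserin arrays shared a chip with a vehicle array of the same time. Vehicle arrays lay 0.39 above naive arrays at 2 h, and against the naive arrays the Arc difference was -0.68 (adjusted p = 0.881). Of 23 measured effector genes induced by neuronal activity, Arc fell, Ccn1 rose, and Bdnf, a growth factor, gave -0.63 (adjusted p = 0.468). Of 21 activity-induced transcription factors only Csrnp1 passed, with a rise of 0.83 (adjusted p = 5.52e-04, 0.113 without mianserin array 1 and 0.164 against Tween 80 alone). The median of these 21 was 0.0027. Npas4, a factor induced by calcium entry, gave -0.72 at 1 h and -0.56 at 2 h (adjusted p = 0.164 and 0.136), Fos gave 0.73 at 2 h (adjusted p = 0.69) and Egr1 gave -0.08.

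**Figure D1:**
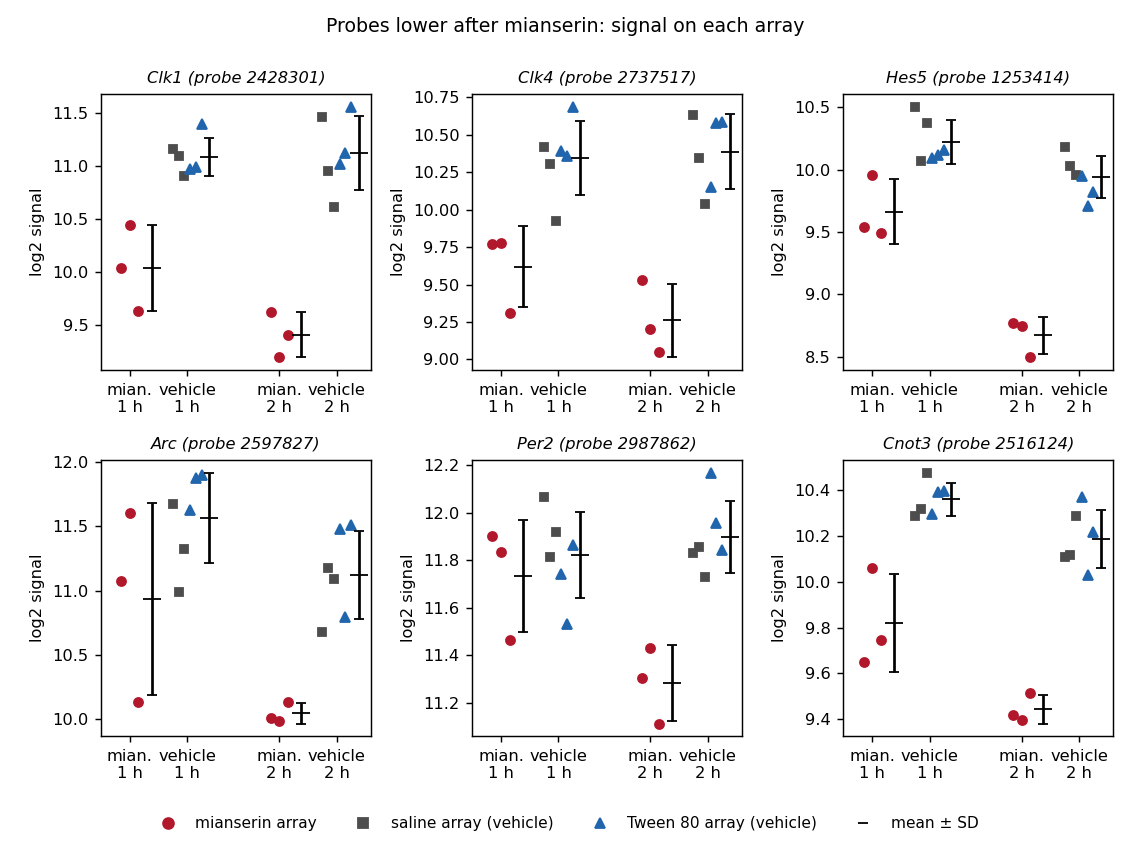
The panels plot the log2 signal of each array for 1 probe of Clk1, Clk4, Hes5, Arc, Per2 and Cnot3, with mianserin to the left of vehicle at 1 h and at 2 h and the mean ± SD beside the points. At 2 h the 3 mianserin arrays lie below the 6 vehicle arrays in every panel, while at 1 h Arc and Per2 overlap.

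Snrnp48, a protein of the minor spliceosome, gave 8.48, 8.35 and 8.52 at 2 h after mianserin, against 9.20, 9.40 and 9.03 after saline and 9.25, 9.10 and 9.45 after Tween 80 (-0.79 ± 0.13, adjusted p = 1.07e-04). Cnot3, a subunit of the CCR4-NOT deadenylase, gave 9.42, 9.40 and 9.51, against 10.11, 10.11 and 10.28 after saline and 10.37, 10.03 and 10.22 after Tween 80 (-0.74 ± 0.12, adjusted p = 2.11e-05). Swt1, related to a yeast endonuclease of nuclear mRNA surveillance, fell on 2 of 3 probes (-0.86 and -0.65, adjusted p = 9.39e-05 and 0.0253). The 3 other probes of Snrnp48 and the 4 others of Cnot3 did not pass. Tnfrsf25, a death receptor, fell by 0.87, Iqcb1, a ciliary protein, by 0.77, and Sox18, an endothelial transcription factor, by 0.74. Kif1b, an axonal motor (1 of 9 probes), fell by 0.73, Prrt3 by 0.73, Ing2, a chromatin reader, by 0.71, and Cfp, the complement factor properdin, by 0.66, with adjusted p from 8.29e-04 (Prrt3) to 0.00985 (Kif1b). Brighter Prrt3 probes gave -0.13 and -0.02 and did not pass. The calls of Iqcb1, Sox18, Kif1b, Prrt3, Ing2 and Cfp were lost without mianserin array 2, and those of Sox18 and Cfp also without array 3 (adjusted p from 0.0512 to 0.318). With median scaling Cnot3, the Swt1 probe at -0.86, Iqcb1, Sox18, Ing2 and Cfp did not pass (adjusted p from 0.0837 to 0.402), against saline alone Tnfrsf25, Iqcb1, Sox18, Kif1b and Cfp did not (0.0802 to 0.435), and against naive arrays Tnfrsf25, Kif1b, Ing2 and Cfp did not (0.0553 to 0.762). Kif1b was also lost with the chip as a fixed block (adjusted p = 0.18), and Ing2 against Tween 80 alone (0.0841) and with the 18 arrays alone (0.0572). Snrnp48, Cnot3, Iqcb1, Sox18, Kif1b, Prrt3, Ing2 and Cfp did not pass with the methods' t-test (adjusted p from 0.0667 to 0.395). At 1 h Tnfrsf25, Snrnp48, Iqcb1, Cnot3 and Prrt3 were also below all vehicle arrays, a position held by 1.29% of all probes, and did not pass.

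Txnip, which binds thioredoxin and limits glucose uptake, showed the largest rise. At 2 h the signal was 12.63, 12.27 and 12.32 after mianserin, against 10.42, 10.72 and 10.25 after saline and 10.80, 10.96 and 10.71 after Tween 80. At 1 h it was 11.11, 11.24 and 11.70 after mianserin, against 10.41, 10.53 and 10.75 after saline and 10.58, 11.20 and 10.45 after Tween 80, so that 1 Tween 80 array reached the mianserin arrays. The 2 h difference was 1.76 ± 0.22 (adjusted p = 4.52e-09), a 3.39-fold higher signal, and 1.69 ± 0.20 on the second probe (adjusted p = 2.09e-09). At 1 h the 2 probes gave 0.70 and 0.62 and did not pass. Polr3e, a subunit of RNA polymerase III, gave 10.57, 10.82 and 10.83 at 2 h after mianserin, against 9.32, 9.16 and 9.34 after saline and 9.31, 9.19 and 9.44 after Tween 80. The difference was 1.45 ± 0.17 (adjusted p = 2.09e-09), against 0.66 at 1 h (adjusted p = 0.459), where the arrays already stood apart. A dimmer Polr3e probe rose by 0.69 at 2 h (adjusted p = 0.00185), and by 0.58 without mianserin array 1, where it did not pass (adjusted p = 0.141), nor with the chip as a fixed block (0.43, adjusted p = 0.175). Of 13 measured genes of the RNA polymerase III machinery, 1 rose and 0 fell (median 0.10), and the repressor Maf1 gave 0.13 (adjusted p = 0.964).

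Targets of the glucocorticoid receptor were the list with the most calls. Of 23 measured members 6 rose and 0 fell at 2 h, against 0.0972% of all probes higher, and 0 passed at 1 h. Lists take the brightest probe of each gene, whereas that share includes dim probes, so the 2 are not matched in signal. Of the 23 members, 21 lay above the median signal of all probes. The list was written with earlier results of these data known. The median of the 23 genes was 0.34 at 2 h and 0.09 at 1 h, against -0.0044 and -0.0066 over all probes, and 22 were above 0 at 2 h. With median scaling the list's median was 0.31 at 2 h, with 21 above 0. The 6 were Sgk1, Nfkbia, Ddit4, Arrdc2, Mt2 and Cdkn1a. Sgk1, a kinase of ion transport and cell survival, gave 14.86, 14.30 and 14.44 after mianserin, against 13.53, 13.18 and 12.70 after saline and 13.12, 13.20 and 13.60 after Tween 80 (1.31 ± 0.23, adjusted p = 2.33e-04). With the methods' t-test Sgk1 did not pass at 2 h (adjusted p = 0.211). At 1 h its mianserin arrays were uneven, at 14.58, 13.07 and 13.96, and overlapped the vehicle arrays (0.82 ± 0.23, adjusted p = 0.893). The Sgk1 signal of vehicle arrays was itself 0.62 above that of naive arrays at 1 h and 0.53 above it at 2 h.

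Nfkbia, the inhibitor that holds NF-kappa-B in the cytoplasm, gave 10.55, 10.87 and 10.59 at 2 h after mianserin, against 9.65, 9.44 and 9.34 after saline and 9.56, 9.53 and 9.65 after Tween 80. This brighter probe differed by 1.14 ± 0.15 (adjusted p = 1.50e-07), and the second by 1.26 ± 0.22 (adjusted p = 2.00e-04, and 0.0686 without mianserin array 1). Ddit4, an inhibitor of the growth kinase complex mTORC1 that glucocorticoids and low energy both induce, gave 12.01, 12.08 and 12.07, against 11.09, 10.93 and 10.81 after saline and 10.67, 10.98 and 10.74 after Tween 80 (1.19 ± 0.19, adjusted p = 4.10e-05). Cdkn1a, the cell cycle inhibitor p21, gave 10.90, 10.92 and 10.96, against 9.84, 10.06 and 10.00 after saline and 10.09, 10.07 and 10.15 after Tween 80 (0.89 ± 0.15, adjusted p = 1.07e-04). A second Cdkn1a probe rose by 0.76 (adjusted p = 0.00688, 0.209 without mianserin array 2, 0.286 with median scaling and 0.105 against Tween 80 alone). The dimmest Cdkn1a probe gave 0.51 (adjusted p = 0.523). On the probes of these 3 genes that passed, the groups stood well apart at 2 h. Arrdc2, an alpha-arrestin, rose by 1.06 (adjusted p = 6.44e-05) and Mt2, a metallothionein, by 0.96 (adjusted p = 0.028). The Arrdc2 call was lost with the methods' t-test (adjusted p = 0.256), and a dimmer Arrdc2 probe gave 0.27 (limma, adjusted p = 0.53). Mt2 was the least stable of the 6. Its call was lost without mianserin array 1 or 3, saline array 1 or 2, or Tween 80 array 1 or 3 (adjusted p from 0.0625 to 0.388), and with the chip as a fixed block it differed by 0.40 (adjusted p = 0.961), or 0.73 with a random block (adjusted p = 0.16). It did not pass against saline, Tween 80 or naive arrays alone (adjusted p from 0.154 to 0.439). Of classic targets that did not pass, Tsc22d3 gave 0.50 (adjusted p = 0.185), Fkbp5 0.34 (adjusted p = 0.493) and Klf9 0.34 (adjusted p = 0.493), and the receptor gene Nr3c1 itself gave -0.10 (adjusted p = 0.967).

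**Figure D2:**
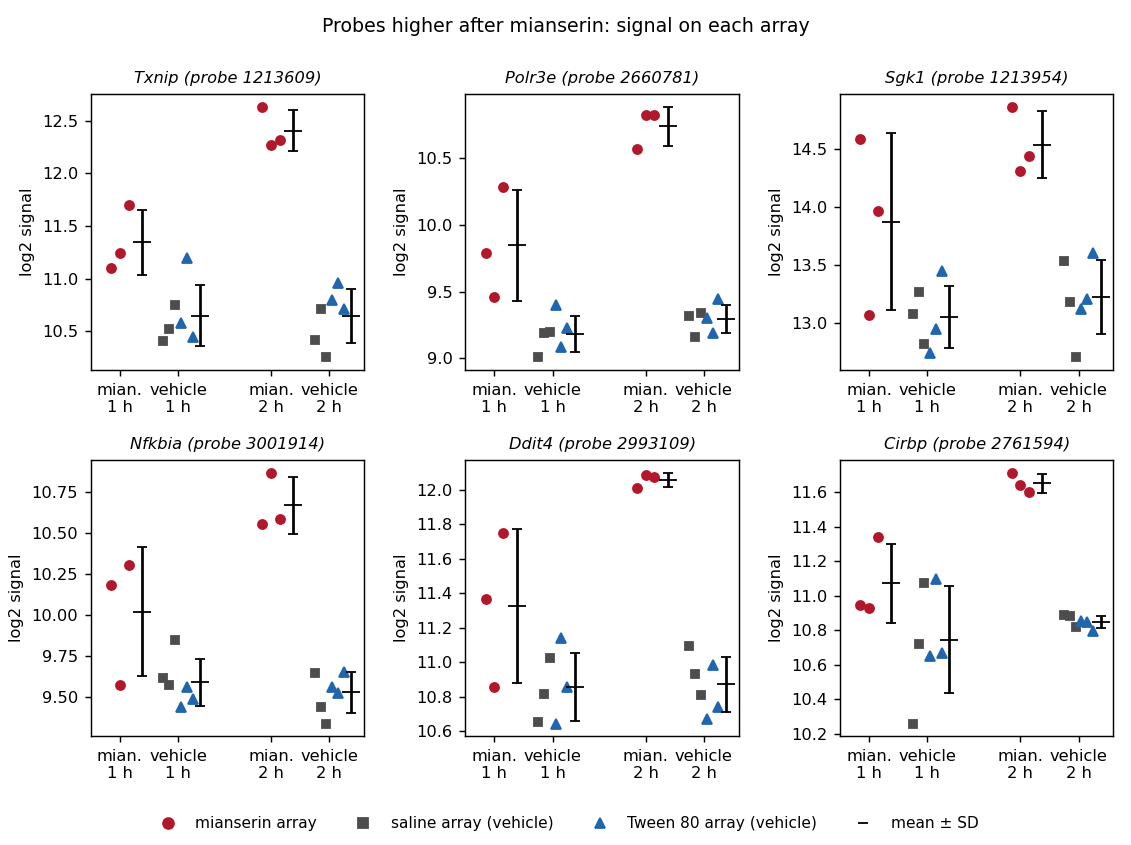
The panels plot the log2 signal of each array for 1 probe of Txnip, Polr3e, Sgk1, Nfkbia, Ddit4 and Cirbp, with mianserin to the left of vehicle at 1 h and at 2 h and the mean ± SD beside the points. The 3 mianserin arrays lie above the 6 vehicle arrays at 2 h in every panel, and at 1 h they are more widely spread.

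Genes of insulin, FOXO and mTOR signalling differed in direction. Of 31 measured members, against 0.0972% of all probes higher and 0.117% lower, 3 rose (Txnip, Ddit4 and Depp1, a target of FOXO factors, at 0.95 with adjusted p = 2.61e-04) and 1 fell (median -0.0047). The gene that fell was Ddit4l, a relative of Ddit4 with a like effect on mTORC1, at 10.85, 10.45 and 10.49 after mianserin, against 11.09, 11.03 and 11.09 after saline and 11.32, 11.45 and 11.50 after Tween 80 (-0.65 ± 0.14, adjusted p = 0.00985). The Ddit4l call was lost without mianserin array 2 or 3 or Tween 80 array 3 (adjusted p from 0.0507 to 0.235), with median scaling (0.402), against saline alone (0.693) and with the chip as a fixed block (0.0682). Ddit4 and Ddit4l thus lay on opposite sides of vehicle at 2 h.

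The clock genes Per1 and Per2, which repress their own transcription in a daily cycle, also differed in direction. Per2 gave 11.31, 11.43 and 11.11 at 2 h after mianserin, against 11.83, 11.86 and 11.73 after saline and 12.17, 11.96 and 11.84 after Tween 80 (-0.61 ± 0.13, adjusted p = 0.00688). Its second brightest probe gave -0.43 (adjusted p = 0.602). Per2 did not pass without mianserin array 1 (adjusted p = 0.059) or 3 (-0.53, adjusted p = 0.222), with median scaling (adjusted p = 0.85), against saline alone (-0.52, adjusted p = 0.292), against naive arrays (-0.38, adjusted p = 0.877) or with the chip as a fixed block (-0.47, adjusted p = 0.103). Per1 passed on its dimmest probe, at 8.45, 8.48 and 8.45 after mianserin, against 7.81, 7.61 and 8.02 after saline and 8.10, 8.06 and 7.74 after Tween 80 (0.58 ± 0.11, adjusted p = 8.29e-04, and 0.0667 against Tween 80 alone). The 2 brighter Per1 probes gave 0.25 and 0.07 (adjusted p = 0.89 and 0.989). At 1 h Per2 gave -0.09 and the Per1 probe 0.10, and both overlapped vehicle. Over the brightest probes of 20 clock genes 0 rose and 1 fell (median 0.04).

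Cirbp, an RNA-binding protein induced by mild cooling, gave 11.71, 11.64 and 11.60 at 2 h after mianserin, against 10.89, 10.88 and 10.82 after saline and 10.85, 10.84 and 10.79 after Tween 80. The difference was 0.80 ± 0.16 (adjusted p = 0.00246), with an SD of 0.06 after mianserin and 0.04 in vehicle. The call was lost without mianserin array 1 (adjusted p = 0.0529), with median scaling (0.286), against saline alone (0.0528) and against naive arrays (0.68, adjusted p = 0.192). At 1 h Cirbp differed by 0.33, with overlap. Rbm3, the other cold-inducible member measured, gave -0.11 (adjusted p = 0.969) on a dim probe. None of 26 heat shock proteins and chaperones passed in limma, and 4 of them had an unadjusted p under 0.05 at 2 h, 2 in each direction, against 6.16% of all probes.

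Further rises were Dclk1, a microtubule-associated kinase of neurons (1.06 on 1 of 3 probes, adjusted p = 0.0035), Fam120b, a coactivator of the nuclear receptor PPAR gamma (1.01 on 1 of 4 probes, adjusted p = 7.14e-07), and C2cd4a (0.87 on 1 of 3 probes, adjusted p = 0.00286). Ccn1, a matricellular early response gene, rose on 2 of 3 probes (0.83 and 0.80, adjusted p = 1.40e-04 and 1.38e-05), and the probe at 0.83 did not pass without mianserin array 3 (0.67, adjusted p = 0.0528) or against saline alone (adjusted p = 0.0626). Klf4, a zinc finger factor of endothelium, rose by 0.51 (adjusted p = 0.0386), and this call was lost without any single mianserin array and without each of 5 vehicle arrays (adjusted p from 0.0598 to 0.288), with median scaling (0.367), after normexp correction (0.114) and against saline alone (0.778). Dimmer Klf4 probes gave 0.17 and 0.27 at 2 h and did not pass. The Dclk1 call was lost without mianserin array 2 or 3 and that of C2cd4a without array 1 or 2 (adjusted p from 0.0626 to 0.102). Dclk1 was also lost with median scaling (0.613) and against saline (0.256) or naive arrays (0.065), and C2cd4a against Tween 80 (0.123) or naive arrays (0.098) and with the chip as a fixed block (0.14). Of 22 measured receptors and transporters that bind mianserin, 0 passed, with 1 higher and 3 lower at an unadjusted p under 0.05. Htr2a, Htr2c and Hrh1 gave -0.04, 0.12 and 0.02 at 2 h.

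**Figure D3:**
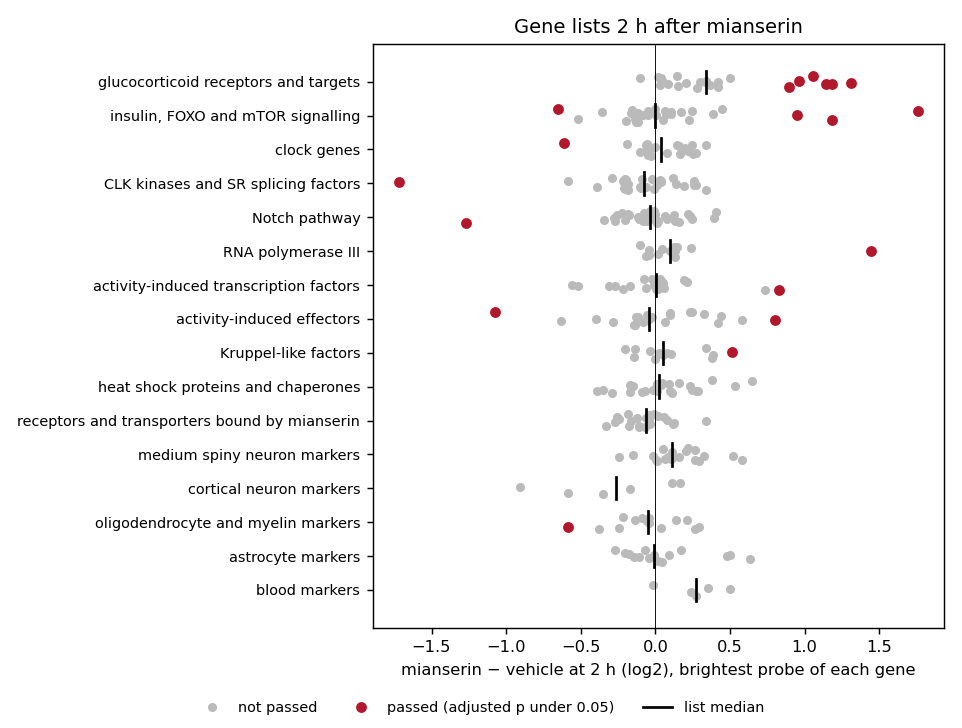
Each grey or red point is a gene of a list, plotted at its mianserin minus vehicle difference at 2 h (log2), with red for an adjusted p under 0.05 and a black bar at the list's median. Glucocorticoid receptors and targets have 6 red points and a median of 0.34, whereas in the other lists the red points number between 0 and 4.

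The 5 named probes with the smallest p in each direction at 1 h are values that did not pass. After Clk1 the falls were Cnot3 (-0.54 ± 0.12), Npas4 (-0.72 ± 0.16), Rps13, a ribosomal protein (-0.45 ± 0.10), and Dlst, a subunit of the oxoglutarate dehydrogenase complex (-0.44 ± 0.10), with adjusted p from 0.164 to 0.179. On these 4 genes mianserin array 2 was nearest to vehicle, and without it all 4 passed (adjusted p from 0.0244 to 0.0375). Npas4 and Rps13 also passed without Tween 80 array 1 (adjusted p = 0.0492 each). Cnot3, Rps13 and Dlst passed at 2 h with their differences at -0.74, -0.46 and -0.45, although brighter probes of Rps13 (0.06) and Dlst (-0.23 and -0.02) did not pass. The rises at 1 h were Klf2, a flow-responsive endothelial factor (0.68 ± 0.16), Ghr, the growth hormone receptor (0.42 ± 0.10), Ccn1 (0.59 ± 0.14), Nfkbia on its dimmer probe (0.90 ± 0.22) and Edn1, the precursor of endothelin (0.63 ± 0.16), with adjusted p from 0.179 to 0.325. Klf2 gave 10.61, 10.35 and 10.59 at 1 h, against 9.90, 9.70 and 9.80 after saline and 9.78, 9.76 and 10.12 after Tween 80, and 0.38 at 2 h with overlap. All 5 passed at 1 h with median scaling (adjusted p from 0.0042 to 0.0471). That scaling gave 5693 probes an unadjusted p under 0.05 at 1 h, against 1349 with quantile normalization. Lists without these genes rose too, with medians of 0.41 for astrocyte markers and 0.33 for heat shock proteins and chaperones, against 0.08 each. The median over all probes was 0.03, and that of the NF-kappa-B and cytokine list was -0.02. Klf2 also passed with the chip as a fixed block (0.80, adjusted p = 0.043) or a random block (0.71, adjusted p = 0.0459) and against naive arrays (1.05, adjusted p = 0.00259), and Ccn1 against naive arrays (0.84, adjusted p = 0.0208).

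The change was larger at 2 h than at 1 h for all of the 97 probes in size, and these probes were chosen by the 2 h result. Of the 44 higher probes 43 were above vehicle at 1 h and of the 53 lower ones 52 were below, with medians of 0.38 and -0.30 at 1 h, against 0.79 and -0.62 at 2 h. The difference between the times was itself tested with separate vehicle arrays at each time, and 0 probes passed in limma (997 with an unadjusted p under 0.05, 2.2%). For Txnip it was 1.07 on both probes (95% intervals 0.46 to 1.67 and 0.52 to 1.62, adjusted p = 1.00 each). For Hes5 it was -0.72 (-1.19 to -0.24) on the brighter probe and -0.39 (-0.83 to 0.05) on the second. For Clk1 it was -0.67 (-1.25 to -0.08), for Mt2 0.82 (0.19 to 1.46) and for Arc -0.45 (-1.11 to 0.22), and none passed. Apart from Txnip, the probes with the smallest p for this difference were dim ones near the median signal (Oacyl, Slamf1, Cep63, Olfr493, Gtsf1, Crnkl1, Krtap13-1, Rtp3 and Agk) and had opposite signs at the 2 times.

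**Figure D4:**
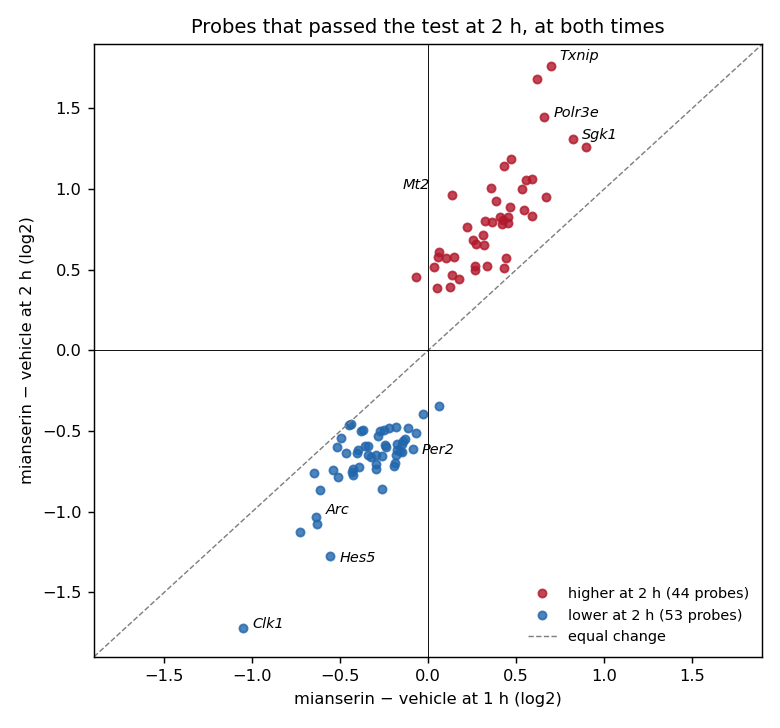
Each point is 1 of the 97 probes that passed at 2 h, with the mianserin minus vehicle difference at 1 h on the horizontal axis and at 2 h on the vertical axis (both log2), and the dashed line marks equal change. The 44 red probes and the 53 blue probes lie farther from 0 at 2 h than at 1 h, and 1 of each colour has the opposite sign at 1 h.

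Other mice treated with mianserin were killed at 4 and 8 h, with their own vehicle arrays. Of the 44 probes higher at 2 h, 35 (79.5%) passed in the same direction at 4 h and 19 (43.2%) at 8 h, where 0.486% and 0.451% of all probes were higher. Of the 53 lower probes 24 (45.3%) passed at 4 h and 1 (1.89%) at 8 h, where 0.203% and 0.128% of all probes were lower. The 35 made up 15.9% of the 4 h rises, and the 24 made up 26.1% of the 4 h falls. The median of the higher probes was 0.90 at 4 h and 0.42 at 8 h, and that of the lower ones -0.47 at 4 h and -0.17 at 8 h. Cdkn1a gave 2.02 at 4 h and 2.59 at 8 h, after 0.89 at 2 h, and Sgk1 gave 2.10 and 1.09 (adjusted p from 6.02e-29 to 0.00332). Clk1 gave -1.37 at 4 h (adjusted p = 2.11e-06) and -0.45 at 8 h (adjusted p = 0.492), and Arc gave -0.60 and -0.48, neither of which passed. The 2 Txnip probes differed in order, with 1.76 at 2 h and 1.84 at 4 h on one and 1.69 and 1.42 on the other. Mt2 (0.19) and Per2 (-0.16) did not pass at 4 h (adjusted p = 1.00 and 0.994).

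**Figure D5:**
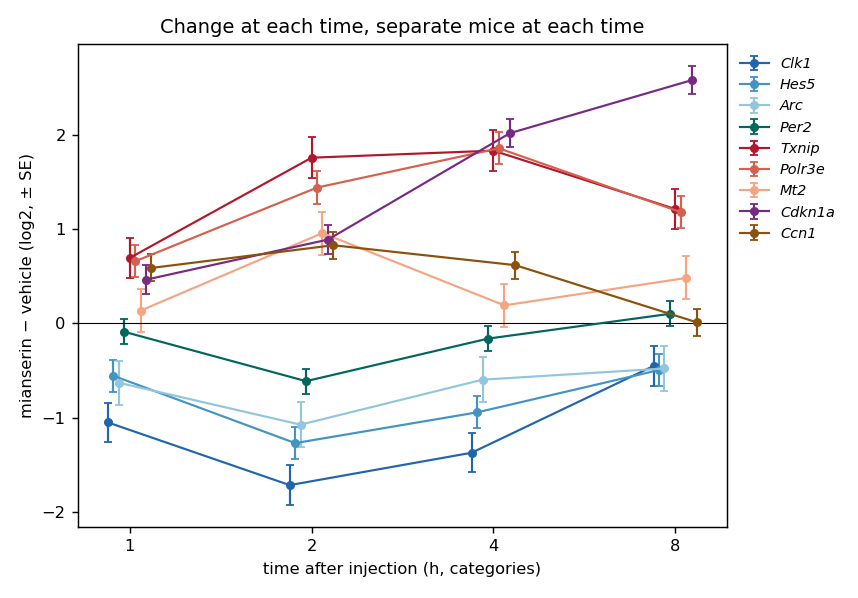
Lines join the mianserin minus vehicle difference (log2, ± SE) of 1 probe each of 9 genes at 1, 2, 4 and 8 h, drawn at equal steps, with separate mice and vehicle arrays at each time. Cdkn1a is highest at 8 h (2.59), Polr3e and the plotted Txnip probe are highest at 4 h (1.86 and 1.84), and Clk1, Hes5, Arc, Per2, Mt2 and Ccn1 are farthest from 0 at 2 h.

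The 2 h mianserin arrays were also set directly against those of 2 other drugs, risperidone, an antipsychotic, and tranylcypromine, a monoamine oxidase inhibitor. Against risperidone 0 probes passed in limma (1859, or 4.11%, with an unadjusted p under 0.05). The named genes were chosen by these mianserin arrays, and the intervals below are not adjusted. Against the same vehicle arrays, risperidone had mianserin's direction on 43 of the 44 higher and all 53 lower probes (medians 0.56 and -0.45). In limma the brighter probes of Clk1 (-1.24), Hes5 (-0.70), Txnip (1.29) and Polr3e (1.14) passed with risperidone, as did Sgk1 (1.58), but not Arc (-0.53). Mianserin minus risperidone was -0.55 for Arc (95% interval -1.09 to -0.01), -0.48 for Clk1 (-0.96 to -0.00126), -0.57 for Hes5 (-0.96 to -0.18), 0.48 for Txnip (-0.02 to 0.97), 0.30 for Polr3e (-0.09 to 0.69) and -0.27 for Sgk1 (-0.80 to 0.26). The second probe of Hes5 gave -0.24 (-0.60 to 0.12), that of Txnip 0.62 (0.16 to 1.07) and that of Polr3e 0.15 (-0.16 to 0.46). Clk1 read 9.62, 9.19 and 9.40 with mianserin and 9.76, 9.85 and 10.05 with risperidone. Against tranylcypromine 37 probes passed (0.0817%), 11 of them among the 97. The 97 were chosen by the same mianserin arrays, so this overlap is not independent evidence. Arc was lower with mianserin by 2.13 (adjusted p = 4.13e-08), as its own differences from vehicle were -1.08 with mianserin and 1.05 with tranylcypromine. Clk1 was lower by 1.53 (adjusted p = 3.09e-05), with 10.60, 11.44 and 10.75 on the tranylcypromine arrays. Txnip was higher with mianserin by 1.19 and 1.22 on its 2 probes (adjusted p = 0.0101 and 0.00133) and Per1 by 0.60 (adjusted p = 0.00917). Sgk1 did not pass there (-0.08, interval -0.61 to 0.45), nor did Hes5 (-0.61, interval -0.99 to -0.22, adjusted p = 0.597). The second Hes5 probe gave -0.27 (interval -0.63 to 0.09) and did not pass.

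The tissue was checked against its markers. All arrays carried a high signal of medium spiny neuron genes, with Ppp1r1b at 15.23 and Drd1 at 13.16 on average at 2 h after mianserin, against 15.23 and 13.145 in vehicle. Of 20 such markers 0 passed at either time, and their median difference was 0.10 at 1 h (0.38 with median scaling) and 0.11 at 2 h. The mean of 5 blood markers lay between 9.74 and 9.91 on the 2 h mianserin arrays, against 9.31 to 9.63 on the vehicle arrays, without overlap, and no single blood gene passed. The mean of 6 cortical neuron markers lay between 9.41 and 9.76, against 9.55 to 10.43 in vehicle, with Slc17a7 at -0.91 (adjusted p = 0.852). The part of these shifts in the changes above was not tested. Among 14 oligodendrocyte markers 1 passed, Aspa, the enzyme that cleaves N-acetylaspartate (-0.59, adjusted p = 0.048), and its call was lost without any 1 mianserin array and without each of 5 vehicle arrays (adjusted p from 0.0663 to 0.29), with median scaling (0.329), against saline, Tween 80 or naive arrays alone (0.224 to 0.242) and with the chip (0.0749) or the replicate number (0.0588) as a block. A dimmer Aspa probe gave -0.03 at 2 h and did not pass. Markers of interneurons, oligodendrocyte precursors, astrocytes, microglia, endothelium, pericytes and choroid plexus had 0 genes that passed in limma, and between 0 and 2 genes per list had an unadjusted p under 0.05 at 2 h.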

How the data were processed

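The authors deposited log2 signals of 45281 probes on Illumina MouseWG-6 v2 arrays (26 chips of 6), in a table without normalization and in a quantile normalized one. Their methods describe BeadStudio export followed by removal of background, quantile normalization, logarithms and z-scores. Whether the deposited log2 values without normalization had background removed is not given in the sources used here, and neither table holds z-scores.

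Here the values without normalization were quantile normalized over all arrays, 2 incomplete probes were dropped, and means of 52 groups were fitted with limma 3.58.1 (R 4.3.3, statmod 1.5.0; intensity trend in the empirical Bayes step), so that each probe has 1 spread over all arrays. Mianserin was compared with the mean of saline replicates 1 to 3 and Tween 80 replicates 1 to 3 of the same time, and the 2 h difference with the 1 h difference. P-values were adjusted by Benjamini and Hochberg over 45279 probes, at 5%. The number of arrays limits the precision.

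Genes were named from the platform annotation (34883 probes with 1 symbol, 18 with several, 10378 with none, 19057 symbols). The named genes are Clk1, Arc and Hes5, the 15 largest rises and 15 largest falls among the 2 h calls with 1 symbol whose groups did not overlap, the 5 smallest p in each direction at 1 h and for the difference between times, and the list members that passed or are best known. Lists were counted on the brightest probe of each gene, and no set test was run. The members and lists were chosen with earlier results of these data known. In simulated data with 200 changed probes of 45279, 66% of changes of 0.5 and 98% of changes of 1 (log2) were recovered at 2 h with 5 unchanged probes called, and 63% and 98% with 10 at 1 h. The simulated arrays had independent noise with 1 spread for each probe and no chip effect. These shares therefore do not measure the power in the real arrays, where chips and uneven pools add spread. Replicate numbers did not pair the arrays (mean correlation of deviations -0.067 over 18 pairs, against 0.034 for other numbers), whereas arrays of one chip did (0.237). The 18 arrays lay on 15 chips of 6 arrays. Alternatives covered normalization, controls, chip and replicate blocks, the spread, the test and each array left out. Python 3.11.15 with matplotlib 3.10.9 drew the figures.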

Additional observations from a re-analysis of the deposited data

Results flagged for a closer look

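Among 114 sets of 6 vehicle arrays examined for the named probes, 6 had 1 array far from the others, and chance flags about 1 set in 20. Klf4 read 8.47 on saline array 2 at 1 h, the lowest of the 6 (next 8.74), and 8.935 on saline array 1 at 2 h, the highest (next 8.56). Cfp read 11.08 on saline array 1 at 2 h, the lowest (next 11.44). Rps13 read 8.951 on Tween 80 array 1 at 1 h, the lowest (next 9.32). Krtap13-1 read 7.101 on Tween 80 array 1 at 1 h, the lowest (next 7.65), and 8.214 on Tween 80 array 3 at 2 h, the highest (next 7.73). With 3 arrays the mianserin groups were too small for this check.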

How the results depend on the processing

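None of the 41 named probes that passed at 2 h changed direction under any of 22 or 23 alternatives, and 9 passed under every one of them. On these 41 probes the mianserin arrays lay all above or all below the vehicle arrays. Leaving out 1 array, or using saline or Tween 80 alone, therefore could not reverse them. The 2 h count of 97 was 98 in the authors' quantile normalized table (97 shared), 36 with median scaling (35 shared), 37 against saline only, 46 against naive arrays, and 17 with the methods' t-test after adjustment (3402 before). Diazepam, buspirone and hydroxyzine lay with their own saline arrays on separate chips. With those chips left out of both the normalization and the fit, the count was 217. The 2 h count ranged from 40 to 94 with 1 array left out. The t-test takes its spread from the mianserin and vehicle arrays of 2 h alone, and it lost 29 of the 41 named calls. Those not given above were Per1, Per2, Ddit4l, Depp1, Dclk1, C2cd4a, Csrnp1, Klf4, Srsf6, Mt2 and Aspa. The dimmer called probes of Nfkbia, Cdkn1a, Polr3e and Ccn1 were lost there too. With median scaling 66.7% of the 2 h calls were higher, against 45.4% in the main fit, and the share was 64.9% against saline, 69.6% against naive arrays, 60% with the 18 arrays alone, 56.8% with the chip as a fixed block and 82.4% with the t-test. The 1 h count of 0 was 14 with median scaling, 4 against naive arrays, 2 with the chip as a fixed block, 2 with it as a random block, and from 0 to 7 with 1 array left out (7 without mianserin array 2, 3 without Tween 80 array 1). The replicate block gave 97 calls at 2 h, 96 of them shared, and 0 at 1 h. The count for the difference between times was 0 under all alternatives run. Only the dim second Clk1 probe changed direction, at 1 h, with -0.0786 under median scaling, -0.00206 against Tween 80, -0.179 against naive arrays and between -0.045 (without mianserin array 1) and 0.1116 (without array 2) with 1 array left out, against 0.036. The cause of these changes was not tested. No detection values were used, so how far a dim probe stood above background is unknown here.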
